A study of Rattus norvegicus with 24 samples.

Results

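The effect of a miR-455-3p mimic was followed in cultured neonatal rat ventricular myocytes across 4 backgrounds at once. The backgrounds cross doxorubicin (yes or no) with a miR-222-3p mimic (yes or no), and each holds 3 libraries with and 3 libraries without miR-455. All 24 libraries of the series entered, 12 with miR-455 against 12 without, compared within backgrounds. Of 21767 gene symbols in the count table, 14303 had enough counts to test. A gene was called at a Benjamini-Hochberg adjusted p under 0.05 in edgeR's quasi-likelihood test of 1 common effect over the backgrounds, the main effect. It counted as moving alike when it was called and its log2 fold change had 1 sign in all 4 backgrounds. By that rule 451 of 14303 genes (3.15%) moved alike, 195 higher (1.36%) and 256 lower (1.79%) with miR-455.

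PolyA RNA came from ventricular myocytes of neonatal Sprague-Dawley rats. Mimics, which are synthetic RNA duplexes that raise the amount of a mature microRNA, were introduced with Lipofectamine RNAiMax at 5 nM each, and doxorubicin or control treatment followed at 48 h and was kept on for 24 h. The groups with miR-455 received it alone or together with miR-222, each without and with doxorubicin. The groups without it received the negative control mimic or miR-222, again each without and with doxorubicin, so all 24 libraries come from transfected cells. Whether the total amount of mimic was kept equal between wells, and which animals or cultures stand behind the replicates, is not in the labels. P-values therefore measure only the spread between these samples, which may be technical. The sample protocol gives the doxorubicin dose as 4 uM and the series text gives it in another unit, so the dose is not settled. Mature microRNAs are not captured by polyA libraries, so the amount of miR-455 reached in the cells was not measured here.

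A microRNA guides an Argonaute protein to messenger RNAs, mostly through pairing of its seed, the bases near its 5′ end, with sites in the 3′ untranslated region. Bound messenger RNAs are translated less and degraded faster, so direct targets tend to be lower when a mimic is added, while genes downstream of them can move either way. miR-455-3p is made from a hairpin within the Col27a1 gene and is best known from cartilage. miR-222-3p is known from growth control and from the heart after exercise. Doxorubicin, an anthracycline used against cancer, damages heart muscle cells.

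The mature sequences show what distinguishes the microRNA that was added from the one that defines 2 of the backgrounds. Both are the annotated rat sequences from RefSeq (build GRCr8), printed 5′ to 3′ with the seed, bases 2 to 8, in capitals. The sources used here do not give the sequence of the mimics themselves.
rno-miR-455-3p, chr5:81704881-81704902, plus strand: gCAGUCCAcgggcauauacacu
rno-miR-222-3p, chrX:6022682-6022702, plus strand: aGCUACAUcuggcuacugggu
The seeds of the 2 microRNAs differ. Of 724 mature rat microRNAs in the RefSeq table, 0 others carried the seed of miR-455-3p, whereas the seed of miR-222-3p was also that of miR-221-3p. The Mir455 hairpin is shown next with the mature 3p arm in capitals, to place the arm that was mimicked in its precursor of 78 bases.
Mir455 hairpin, chr5:81704834-81704911, plus strand: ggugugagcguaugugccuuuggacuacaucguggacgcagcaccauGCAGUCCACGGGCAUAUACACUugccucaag
The messenger RNA of the host gene Col27a1, which encodes a fibrillar collagen chain, did not pass the test (log2 fold change -0.25 ± 0.35, adjusted p = 0.854).

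Library depth lay between 17311949 and 25750309 counts, with 11469 to 13524 genes reaching 10 counts in a library. Cardiomyocyte transcripts were abundant: the 25 sarcomere genes summed to between 33531 and 88262 CPM (counts scaled to a common library total) in libraries with miR-455 and between 31769.6 and 53884 CPM in those without. In the plain background that sum did not overlap, with 55680 to 78708 CPM with and 33083 to 40468 CPM without miR-455. Its part in the calls of that background was not tested. Markers of other cells were present too. The 17 fibroblast and matrix markers tested reached from 23513 to 54481 CPM with and from 24587 to 83888 CPM without miR-455, the smooth muscle and pericyte markers from 4142 to 8177 CPM with and from 4022 to 8528 CPM without. Endothelial markers (84.6 to 255 CPM with, 92.6 to 279 CPM without) and macrophage and leukocyte markers (8.45 to 21.7 CPM with, 9.59 to 26.1 CPM without) were low. These sums are over the markers that were tested. Some other listed markers had too few counts to test, so their low level follows from that choice. Among them, Emcn of endothelium had 3 counts over the 12 libraries with and 16 over the 12 without miR-455. Erg of endothelium had 44 counts with and 42 without. Ptprc of leukocytes had 22 counts over the 12 libraries with and 56 over the 12 without miR-455. Adgre1 of macrophages had 3 counts over the 12 libraries with and 4 over the 12 without miR-455. In bulk samples, fewer cells of a type and less RNA per cell cannot be told apart.

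Replicates were uneven in 3 ways. In 4 of the 8 groups, some replicate pairs lay far closer to each other than the rest: a chi-square comparison of their counts gave 5.79 to 9.79 per degree of freedom in 6 such pairs, against 51.4 to 575 in the others. These pairs still differed by more than sampling noise and were counted separately, and an alternative sums them. In the miR-455 group under doxorubicin all 3 pairs were close (7.81 to 9.79), so the alternative leaves that group a single library. Whether its 3 libraries are separate cultures is not in the labels. A lack of overlap in that background may therefore rest on fewer than 3 samples with miR-455. The share of counts from mitochondrially encoded transcripts averaged 13.3% ± 6.40 with miR-455 and 13.8% ± 8.51 without (SD, n = 12 each), with a two-sided exact permutation p of 0.886 within backgrounds. Within backgrounds, however, the difference went both ways: -7.30 percentage points in the plain background (no miR-222, no doxorubicin), 4.21 in the miR-222 background, -6.38 in the doxorubicin background and 7.61 in the background with both miR-222 and doxorubicin. With this share as a covariate, 1302 genes were called for miR-455 and 1197 moved alike, against 474 and 451 without the covariate. The summed level of 16 hypoxia-induced genes also split the replicates of the groups without doxorubicin. With miR-455 it was 5746, 1396 and 6416 CPM in the plain background, against 1102, 923 and 3568 CPM without it. The miR-222 background had 4903, 5001 and 1397 CPM with miR-455, against 4817, 4643 and 1070 CPM without it. The part of this split in the calls was not tested.

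**Figure D1:**
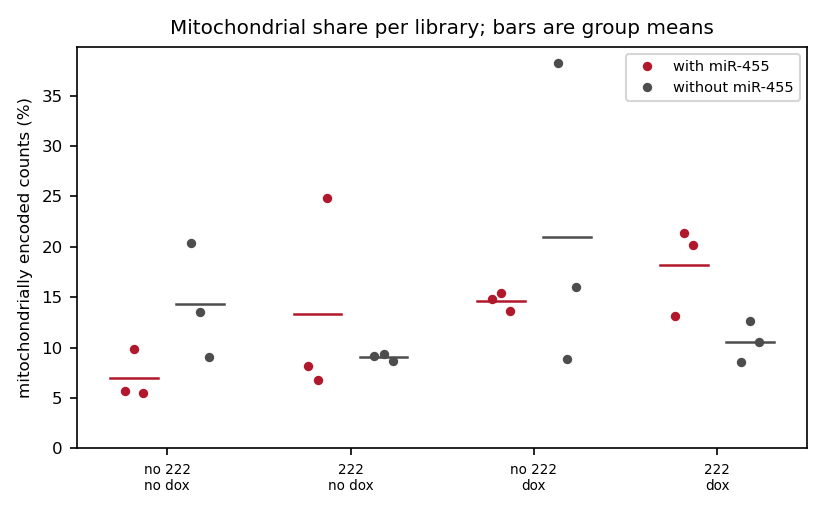
Share of counts from mitochondrially encoded transcripts (percent, vertical axis) in each of the 24 libraries, by background along the horizontal axis, with miR-455 (red) left of without (grey); bars are means of 3 libraries. The mean with miR-455 lies below that without in both backgrounds without miR-222, and above it in both backgrounds with miR-222.

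The number of genes called for miR-455 was uneven over the backgrounds. The test of 1 common effect over the 4 backgrounds called 474 of 14303 genes (3.31%), 202 higher (1.41%) and 272 lower (1.9%). Without adjustment, 2090 genes (14.6%) had a p under 0.05. In the plain background alone 675 genes (4.72%) were called, 353 higher (2.47%) and 322 lower (2.25%). In the doxorubicin background there were 358 (2.5%), 94 higher (0.657%) and 264 lower (1.85%). In the miR-222 background edgeR called 0 genes, with 564 (3.94%) at an unadjusted p under 0.05 and 24 called by DESeq2. In the background with both, 23 genes (0.161%) were called, all 23 lower.

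The within-background counts rest on single libraries and on the close replicates. With close replicates summed, the plain background had 2 calls, the doxorubicin background 0 and the background with both 0. That of the plain background ranged from 16 without replicate 1 of the miR-455 group to 1987 without its replicate 2, that of the doxorubicin background from 145 without replicate 3 of its miR-455 group to 469 without replicate 3 of the group with both mimics and no doxorubicin, and that of the background with both from 3 without replicate 3 of its miR-222 group to 38 without replicate 1 of the group with both mimics.

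The 4 within-background effects share no library, so they can be set side by side gene by gene. Across all 14303 genes, which are not independent replicates, the effects in the plain and the doxorubicin backgrounds were positively correlated (Pearson's r = 0.28, 61.6% of genes with the same sign). So were those in the miR-222 background and the background with both (r = 0.42, 75.5%). Between a background without and one with miR-222 the correlations were negative and mostly close to 0, at -0.11, -0.28, -0.10 and -0.10, with 36.8% to 46.1% of genes sharing a sign. A test of the difference in miR-455 effect with and without miR-222 called 265 genes (1.85%), of which 213 had mean effects of opposite sign in the 2 settings. With close replicates summed it called 0 genes, with the mitochondrial share as a covariate 37, and with the replicate block 61. The count of 265 also moved between 37 and 1768 when single libraries were left out, the low end without replicate 3 of the miR-455 group under doxorubicin and the high end without replicate 1 of the group with both mimics under doxorubicin. The corresponding test for doxorubicin called 0 genes in edgeR (885, or 6.19%, at an unadjusted p under 0.05, and 45 in DESeq2). The three-way difference also called 0 (513, or 3.59%, at an unadjusted p under 0.05, and 4 in DESeq2).

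A smaller set of genes moved in the same direction in all 4 backgrounds. Of all genes, called or not, 2254 (15.8%) had 1 sign in all 4 backgrounds, 1178 higher (8.24%) and 1076 lower (7.52%). Of the 474 genes called, 451 had it, and the exceptions were 7 higher and 16 lower genes. The test fits 1 common effect, so a gene whose effects differ between backgrounds is less easily called. The share with 1 sign among called genes is therefore partly set by the test. When each of the 8 groups was fitted with its own mean, 602 of 758 called genes had 1 sign. In 73 genes (0.51%) the 3 libraries with miR-455 lay clear of the 3 without in every background, 26 higher (0.182%) and 47 lower (0.329%), and all 73 were among those called. Sizes were moderate. The genes that moved alike had a median main log2 fold change of 0.59 when higher (range 0.31 to 2.28) and -0.78 when lower (range -0.36 to -2.89), against a median of 0.02 over all genes tested. A change of at least 2-fold was seen in 15 of the 195 higher and 62 of the 256 lower genes. In all 4 backgrounds it was reached by 2 higher and 7 lower genes.

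**Figure D2:**
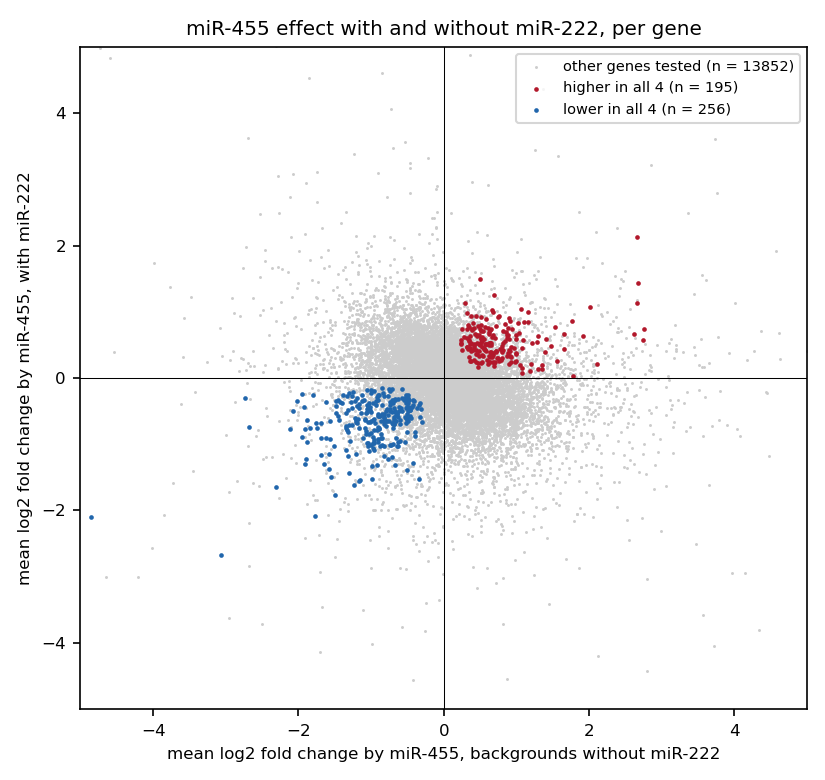
Log2 fold change by miR-455 averaged over the 2 backgrounds without miR-222 (horizontal axis) and the 2 with miR-222 (vertical axis), one point per tested gene; 195 genes higher (red) and 256 lower (blue) in all 4 backgrounds lie in the upper right and lower left by their definition, and 54 genes fall outside the axes. The grey cloud of the other genes leans the other way, from upper left to lower right.

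Median changes of the shared genes were smaller where miR-222 was present. Among the 256 genes lower in all 4, the median log2 fold change was -0.80 in the plain background, -0.52 with miR-222, -0.99 with doxorubicin and -0.69 with both, and 190 of them had a smaller mean effect with miR-222 than without. Among the 195 higher genes the medians were 0.67, 0.44, 0.67 and 0.56 in the same order, and 128 were smaller with miR-222. Over all genes tested the share with the smaller mean effect under miR-222 was 54.8% (7843). A joint test of any difference between the 4 backgrounds had an unadjusted p of 0.05 or more in 348 of the 451 genes, which does not show that their effects are equal. It was called in 6 of them, 1 higher and 5 lower. No gene was called in each of the 4 backgrounds on its own, since the miR-222 background had no call: of the 451, 215 were called in none, 153 in 1, 76 in 2 and 7 in 3.

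From here on, a value with ± is a main-effect log2 fold change and its standard error over 24 libraries, and 4 values in a row are log2 fold changes in the plain, the miR-222, the doxorubicin background and the one with both, in that order. The genes named in this and the next paragraphs are the 15 lower and 15 higher whose weakest within-background change was furthest from 0, among those averaging at least 5 CPM. Nt5e, the ecto-enzyme CD73 that makes adenosine from AMP outside the cell, had the smallest p of all 14303 genes. In the plain background it had 17.7, 22.7 and 19.0 CPM with miR-455, against 78.2, 60.7 and 58.2 CPM without it. In the miR-222 background it had 39.2, 39.5 and 56.2 CPM with miR-455, against 99.2, 104 and 110.4 CPM without it. In the doxorubicin background the values were 21.4, 18.8 and 20.7 CPM with miR-455, against 65.3, 51.8 and 75.2 CPM without it. In the background with both they were 71.3, 43.5 and 74.5 CPM with miR-455, against 103, 172 and 137 CPM without it. The libraries of the 2 sides did not overlap in any background, and Nt5e was itself higher wherever miR-222 was present. Its log2 fold changes were -1.73, -1.22, -1.66 and -1.12, and the main effect was -1.43 ± 0.13 (adjusted p = 9.86e-07).

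Ppm1g, a nuclear protein phosphatase of the PP2C family, was lower by a similar amount in each background. It ran from 23.6 to 46.8 CPM (median 37.2) in the 12 libraries with miR-455, against 58.2 to 90.6 CPM (median 76.3) in the 12 without, so that the 12 libraries with and the 12 without did not overlap even across backgrounds. Its log2 fold changes were -0.97, -0.81, -1.11 and -1.25, with a main effect of -1.03 ± 0.10 (adjusted p = 5.78e-06). Emd encodes emerin, a protein of the inner nuclear membrane whose loss causes a muscular dystrophy with heart disease in humans. Emd ranged from 3.85 to 10.4 CPM (median 7.96) in the 12 libraries with miR-455, against 8.27 to 23.7 CPM (median 14.6) in the 12 without, and it fell by nearly the same amount in each background (-1.02, -0.94, -1.11 and -1.03; main effect -1.02 ± 0.13, adjusted p = 6.01e-05). Elof1, a transcription elongation factor, did so too (-1.09, -0.93, -0.86 and -1.02; -0.98 ± 0.13, adjusted p = 1.49e-04).

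Glb1, the lysosomal beta-galactosidase that removes galactose from GM1 ganglioside, was lower in every background. With doxorubicin it had 37.8, 43.0 and 39.6 CPM with miR-455, against 127, 192 and 143 CPM without it. With both miR-222 and doxorubicin it had 80.9, 50.4 and 75.7 CPM with miR-455, against 155, 146 and 141 CPM without it. Its levels were lower without doxorubicin. In the plain background it had 22.7, 29.2 and 22.1 CPM with miR-455, against 39.3, 57.0 and 60.5 CPM without it, and in the miR-222 background it had 30.5, 32.9 and 33.2 CPM with miR-455, against 61.2, 60.4 and 65.0 CPM without it. Libraries with miR-455 lay below their counterparts in each background, with log2 fold changes of -1.08, -0.95, -1.94 and -1.09 and a main effect of -1.26 ± 0.13 (adjusted p = 7.39e-06).

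Egr2, a zinc finger transcription factor induced early after growth stimuli, was lower throughout at a low level. It ranged from 1.00 to 11.0 CPM (median 4.67) in the 12 libraries with miR-455, against 2.05 to 28.8 CPM (median 13.3) in the 12 without. The groups did not overlap within any background, and the main effect was -1.47 ± 0.24 (adjusted p = 7.16e-04), with -2.15, -1.59, -1.02 and -1.15 by background. It was the only one of 21 immediate early genes called in the main effect, and the median of that list was 0.02.

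Further lowered genes under the naming rule carry out varied functions. Nrep, a small protein known from neuronal and myofibroblast biology, fell by 1.98 on the log2 scale (SE 0.30, adjusted p = 4.03e-04), and its libraries overlapped in 1 background. Rmnd5a, a ubiquitin ligase subunit of the CTLH complex, had -1.26 ± 0.15. Anapc15, a subunit of the anaphase-promoting complex, had -1.43 ± 0.18, and G3bp2, an RNA-binding protein of stress granules, -0.96 ± 0.18. B4galt2, a Golgi galactosyltransferase, had -1.63 ± 0.28, with -0.80, -1.25, -2.19 and -2.29 by background. Tmem254 had -1.92 ± 0.30 at a low level, with means of 3.96 CPM with and 14.7 CPM without miR-455. Its libraries lay apart in only 2 backgrounds. Lrrc2 had -1.52 ± 0.35. Ntn1, the secreted guidance protein netrin-1, had -1.07 ± 0.29, adjusted p = 0.0415, and Iqgap2, a scaffold protein, -1.30 ± 0.34, adjusted p = 0.0361. These last 2 lost their call most often when settings were changed, Ntn1 in 17 and Iqgap2 in 15 of 33 alternatives.

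Raised genes were fewer and their changes smaller. Canx, the endoplasmic reticulum chaperone calnexin, was the most abundant of the 15 named. In the plain background it had 1061, 649 and 1153 CPM with miR-455, against 700.4, 532 and 449 CPM without it. In the miR-222 background the values were 650.1, 637 and 822 CPM with miR-455, against 466, 474 and 451 CPM without it. In the doxorubicin background they were 2000.2, 1963 and 1787 CPM with miR-455, against 1213, 915 and 751 CPM without it, and in the background with both 1402, 1981 and 1861 CPM with miR-455, against 924, 948 and 941 CPM without it. The sides were apart in 3 backgrounds and overlapped in the plain one. Its log2 fold changes were 0.77, 0.60, 1.00 and 0.90 and its main effect was 0.82 ± 0.12 (adjusted p = 2.45e-04).

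Ncoa1, a coactivator of nuclear receptors, had, in the plain background, 76.7, 57.6 and 79.7 CPM with miR-455, against 49.4, 44.5 and 31.2 CPM without it. In the doxorubicin background it had 28.0, 19.9 and 24.1 CPM with miR-455, against 11.8, 12.2 and 12.9 CPM without it. Its level was lower on both sides with doxorubicin, and its log2 fold changes by background were 0.77, 0.58, 0.96 and 0.72 (main effect 0.76 ± 0.11, adjusted p = 2.11e-04). Bola3, which serves iron-sulfur cluster assembly in mitochondria, ranged from 36.2 to 146 CPM (median 79.2) in the 12 libraries with miR-455, against 18.2 to 114 CPM (median 40.3) in the 12 without, and its 4 changes were close to each other (1.00, 0.98, 0.79 and 0.83; main effect 0.90 ± 0.14, adjusted p = 4.20e-04). Pfkp, the platelet-type phosphofructokinase of glycolysis, ranged from 293 to 677 CPM (median 398) in the 12 libraries with miR-455, against 161 to 361 CPM (median 234) in the 12 without (main effect 0.84 ± 0.13, adjusted p = 5.38e-04). Atp1b1, the beta subunit of the sodium-potassium pump, ranged from 695 to 1983 CPM (median 818) in the 12 libraries with miR-455, against 328 to 831 CPM (median 558) in the 12 without (main effect 0.84 ± 0.14, adjusted p = 8.94e-04). For Ncoa1, Bola3, Pfkp and Atp1b1 the libraries with and without miR-455 did not overlap within any background.

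**Figure D3:**
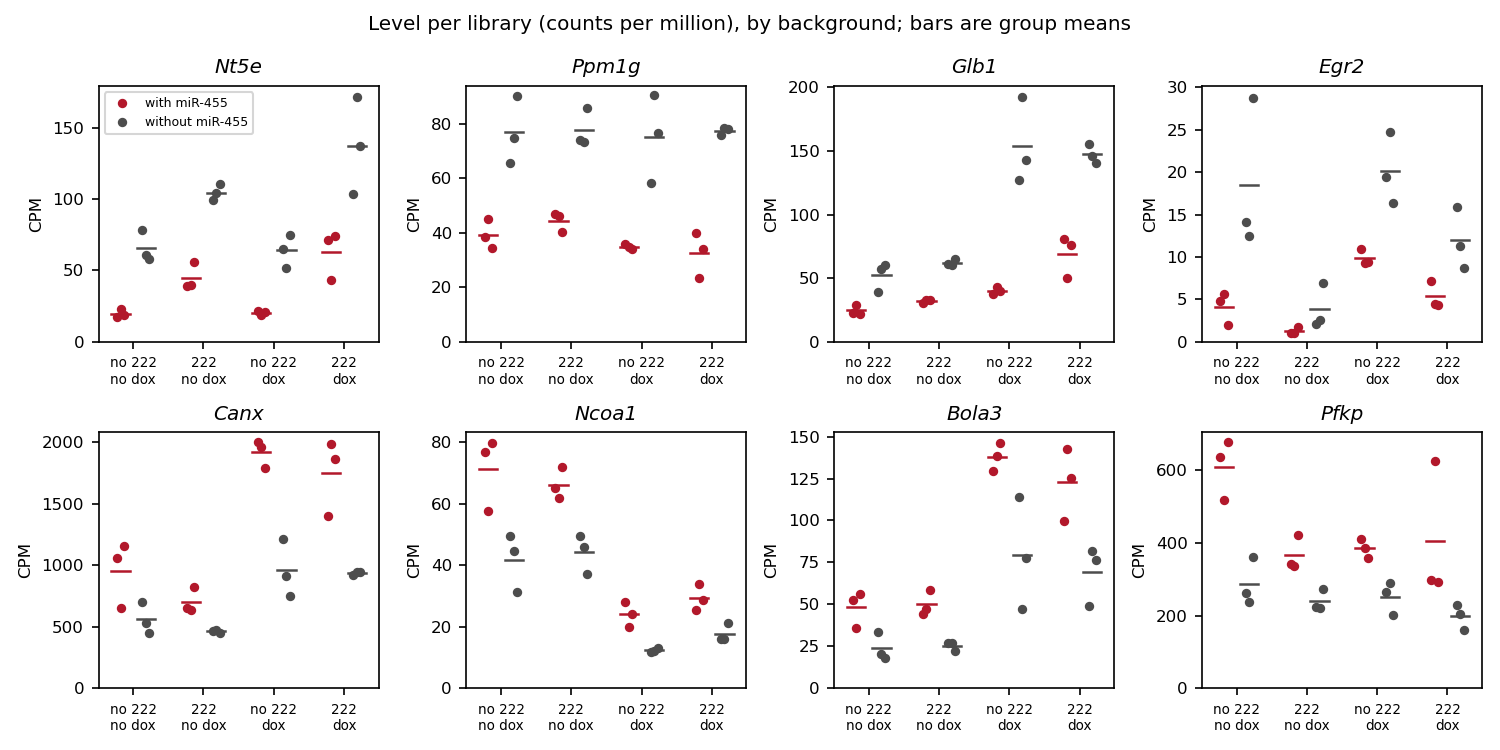
Level of 4 lowered genes (upper row) and 4 raised genes (lower row) in CPM (vertical axes) for each of the 24 libraries, by background along the horizontal axes, with miR-455 (red) left of without (grey); bars are means of 3 libraries. Red and grey points do not overlap within a background in any panel except Canx in the plain background.

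Wrb, a receptor that inserts tail-anchored proteins into the endoplasmic reticulum membrane, had larger changes in the 2 backgrounds with doxorubicin (0.68, 0.68, 1.65 and 1.30 by background; main effect 1.07 ± 0.16, adjusted p = 4.20e-04), but the joint test of a difference between backgrounds gave an unadjusted p of 0.0614. Timm8b, a chaperone of mitochondrial protein import, had a main effect of 0.75 ± 0.13, Ndufaf2, an assembly factor of complex I, 0.89 ± 0.21, and Necap1, which takes part in clathrin-mediated endocytosis, 0.65 ± 0.10. Arl8b, a small GTPase that positions lysosomes, had 0.84 ± 0.19, Scrn3 0.77 ± 0.14 and Dnph1, a nucleotide hydrolase, 1.31 ± 0.20. The largest raised change under the rule was that of Kcne1, the beta subunit of the cardiac slow delayed rectifier potassium channel, at 1.90 ± 0.41 (adjusted p = 0.00914). Its level was low, from 1.70 to 25.7 CPM (median 5.70) in the 12 libraries with miR-455, against 0 to 6.68 CPM (median 1.60) in the 12 without, and libraries overlapped in 2 backgrounds. Serpinb1a, a protease inhibitor, rose by 1.52 ± 0.32, mainly in the plain background (2.92, 1.18, 1.09 and 0.98), and Tmem45a by 0.85 ± 0.22, adjusted p = 0.0292, a call lost in 12 of 33 alternatives.

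**Figure D4:**
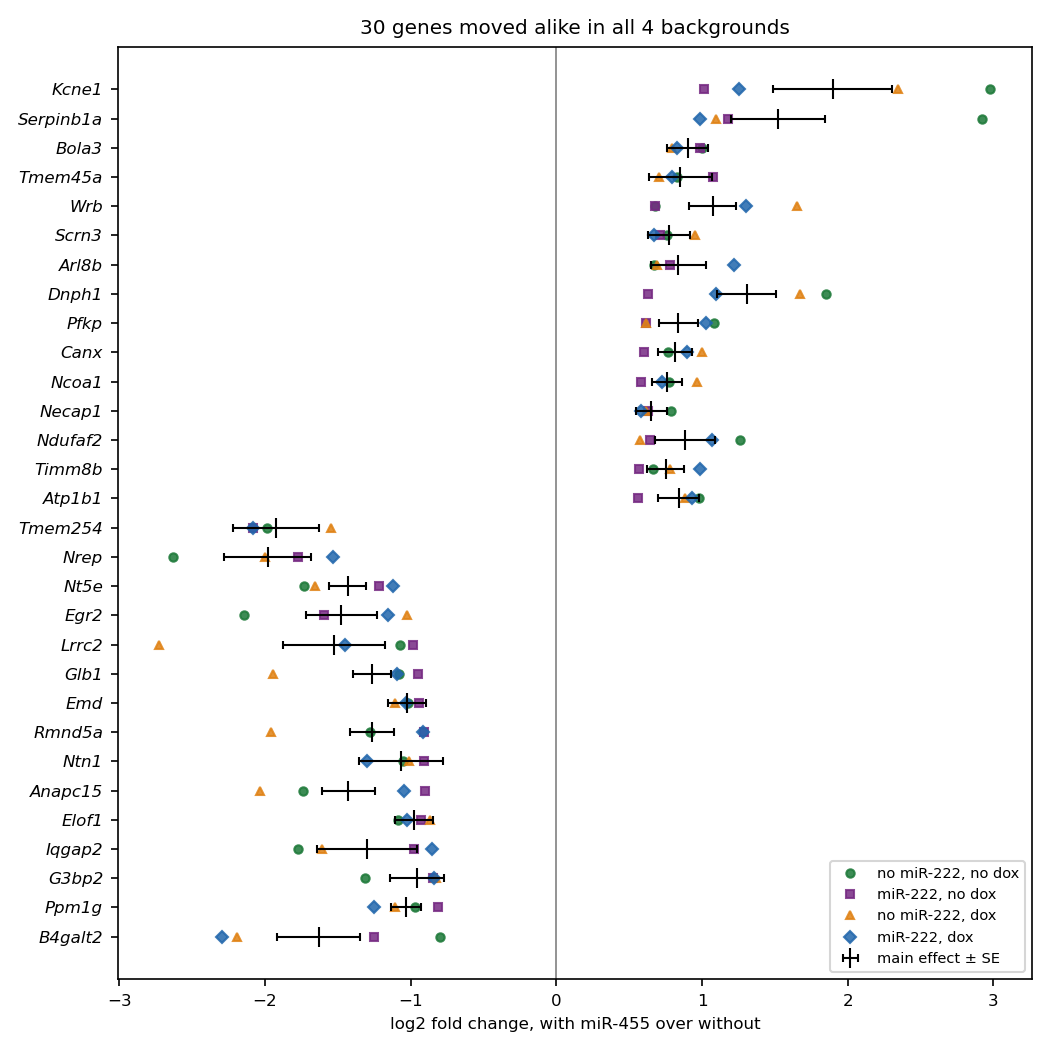
Log2 fold change (with miR-455 over without, horizontal axis) of the 15 raised and 15 lowered genes named by rule, ordered by their weakest background; coloured symbols are the 4 backgrounds and black bars the main effect ± SE over 24 libraries. Every symbol of the upper 15 genes lies right of 0 and every symbol of the lower 15 left of it, as the rule requires, and the spread between backgrounds is narrow for Bola3, Emd and Elof1 and wide for Kcne1, Lrrc2 and B4galt2.

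A core of 76 genes, 22 higher and 54 lower, moved alike in each of 33 other ways of processing the counts, including every fit with 1 library left out. They are also all the genes called when close replicates were summed, the strictest of these, and 253 genes moved alike in each of the others. Of the 76, 46 also had no overlap between libraries in any background, and 19 of the 30 named genes were among them. The genes that follow belong to that core and were picked from it after their values were seen. On the lowered side were Dkk3, a secreted relative of the dickkopf proteins (-1.42 ± 0.15, adjusted p = 7.67e-06; 83.8 CPM with and 242 CPM without miR-455), and Sort1, a sorting receptor that carries proteins to lysosomes (-1.23 ± 0.17, adjusted p = 2.37e-04; 82.3 CPM with and 196 CPM without miR-455). Arpc1a, a subunit of the actin-branching Arp2/3 complex, had -1.35 ± 0.16, with its largest fall in the background with both (-1.97). Irak1, a kinase downstream of interleukin-1 and Toll-like receptors, had -1.07 ± 0.13, and Tnip1, which binds the ubiquitin-editing enzyme A20, -0.98 ± 0.16. Rtcb, the ligase of transfer RNA splicing, had -1.01 ± 0.11.

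On the raised side of the core were Med30, a Mediator subunit (1.61 ± 0.31, adjusted p = 0.00341; 2.04, 0.55, 3.20 and 0.79 by background), and Erlin2, a protein of endoplasmic reticulum lipid domains (0.83 ± 0.11, adjusted p = 1.49e-04). Lrpprc, which stabilizes mitochondrial messenger RNAs, rose about alike in all backgrounds (0.74, 0.70, 0.52 and 0.76; main effect 0.68 ± 0.12, adjusted p = 0.00143). Its libraries with and without miR-455 lay apart in only 2 of the 4 backgrounds. Npc1, the cholesterol exporter of lysosomes, also rose about alike (0.42, 0.44, 0.63 and 0.69; 0.55 ± 0.08, adjusted p = 2.94e-04), with its libraries apart in all 4.

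Of the enzymes of one lysosomal route, most were lower. Families were counted by gene symbol because some of their members stood out among the called genes, so the choice of families followed the values and their counts are a description. Of 5 genes for degrading GM1 and GM2 gangliosides, 4 were lower and alike: Glb1 (-1.26 ± 0.13), the GM2 activator Gm2a (-1.03 ± 0.16), the stabilizing protease Ctsa (-0.57 ± 0.13) and the hexosaminidase subunit Hexa (-0.55 ± 0.13). Neu1 (0.08 ± 0.19, adjusted p = 0.932) did not pass the test. Gm2a had 34.2, 31.5 and 29.6 CPM with miR-455, against 148, 128 and 122 CPM without it in the doxorubicin background, and its fall differed between backgrounds (-0.81, -0.46, -2.06 and -0.81; joint difference test, adjusted p = 0.0215). Of 35 basement membrane and elastic fibre genes, 5 were lower and 0 higher: Eln (-1.47 ± 0.27, adjusted p = 0.00228), Col15a1 (-0.85 ± 0.19, adjusted p = 0.0101), Col4a4 (-0.73 ± 0.13, adjusted p = 0.00259), Col4a3 (-0.57 ± 0.16, adjusted p = 0.0439) and Ltbp4 (-0.93 ± 0.26, adjusted p = 0.0487). Over all genes 1.9% were called lower. Summing close replicates left 0 of the 35 and 2 of the 5 ganglioside genes called. The median of the basement membrane and elastic fibre family was -0.18. The summed levels of the fibroblast and matrix markers overlapped between the 2 sides, as given above.

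Some genes of mitochondrial assembly were higher, by small amounts, in the fit of all 24 libraries. Over all genes 1.41% were called higher and 1.9% lower in that fit. By symbol, 37 tested genes were counted as complex I subunits. Ndufa4 and Ndufa4l2, neither of which was called, entered by symbol only. Of the 37, 7 were higher, 6 of them alike, and 1 lower, with a family median of 0.31. By background the medians were 0.77, 0.15, 0.23 and 0.20, and 4, 8, 14 and 14 of the 37 were negative. Called or not, 14 of the 37 were positive in all 4 backgrounds and 1 was negative in all 4. Ndufa5 was among the steadiest (0.65, 0.44, 0.61 and 0.63; 0.58 ± 0.15, adjusted p = 0.0254), while Ndufv2 had 0.76 ± 0.16, adjusted p = 0.00789 and Ndufb9 had its larger values without miR-222 (1.09, 0.15, 1.63 and 0.24). The lower subunit, Ndufb2, was not alike (0.07, -0.65, -1.44 and -1.49). Of 8 complex I assembly factors 3 were higher (Ndufaf2, Ndufaf6 and Ndufaf7), with a median of 0.52. Of 78 mitochondrial ribosomal proteins 10 were higher, 9 of them alike, and 0 lower, and 69 had a positive main effect (median 0.33). By background the family medians were 0.64, 0.17, 0.23 and 0.23, and 7, 22, 22 and 27 of the 78 were negative. In all 4 backgrounds 31 of the 78 were positive, called or not. Mrpl57 (1.00 ± 0.15, adjusted p = 4.03e-04), Mrps30 (0.63 ± 0.10, adjusted p = 5.06e-04) and Mrps10 (0.99 ± 0.18, adjusted p = 0.00280) had the smallest p. An unadjusted p under 0.05 was reached by 40 higher and 3 lower members of the family. By DESeq2, 18 were called higher and 1 lower. Over all genes an unadjusted p under 0.05 was reached by 7.49% higher and 7.12% lower, and DESeq2 called 2.86% higher and 3.61% lower. Of 36 proteins of mitochondrial import 5 were higher (Timm8b, Pam16, Mtx2, Hspe1 and Dnajc19) and 1 lower, the processing peptidase subunit Pmpcb (-0.89 ± 0.15, adjusted p = 0.00143).

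The 13 mitochondrially encoded transcripts did not follow: 0 were called, 0 had an unadjusted p under 0.05, DESeq2 called 0, and their median main effect was -0.20. By background their median was -1.52, 0.82, -0.90 and 0.73, with the sign turning with miR-222. Of the 23 nuclear respiratory chain genes in a broader list 1 (Ndufv2) was called, with a median of 0.14. The counts of the mitochondrial families were sensitive in both directions. With close replicates summed, 3 mitochondrial ribosomal proteins, 0 complex I subunits, 0 assembly factors and 1 import protein were higher, against 0.145% of all genes. The opposite shift came with 4 libraries of few detected genes, 2 with and 2 without miR-455, left out. The 2 without it had the control mimic, and the 2 with it had both mimics. These 4 libraries also had the highest mitochondrial shares of the series (38.2, 24.9, 21.3 and 20.3%). Without these 4 libraries 30 mitochondrial ribosomal proteins, 13 complex I subunits and 12 import proteins were higher, and 2, 2 and 1 were lower. Of all genes, 4.16% were then called higher and 5.77% lower.

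Some genes of protein synthesis and amino acid supply were higher as well. Of 20 cytosolic aminoacyl-tRNA synthetases, the enzymes that charge transfer RNAs, 7 were higher and alike and 0 lower, against 1.41% of all genes called higher. The count was 0 of 20 with close replicates summed. The 7 were Eprs (0.68 ± 0.12, adjusted p = 0.00219), Mars (0.55 ± 0.11, adjusted p = 0.00489), Sars (0.50 ± 0.11, adjusted p = 0.00790), Wars (0.43 ± 0.10, adjusted p = 0.0117), Iars (0.49 ± 0.11, adjusted p = 0.0159), Yars (0.41 ± 0.11, adjusted p = 0.0377) and Aars (0.50 ± 0.14, adjusted p = 0.0418). Of 17 mitochondrial synthetases 0 were called by edgeR or by DESeq2, and an unadjusted p under 0.05 was reached by 2 higher and 0 lower ones. Without the 4 libraries of few detected genes, 4 of the 17 were higher. The difference between the cytosolic and the mitochondrial enzymes was not tested. Of 11 genes for serine, proline and asparagine synthesis and the linked one-carbon and cysteine pathways, 4 were higher and all 11 had a positive main effect (median 0.55). They were not all positive in each background: the family medians were 0.42, 0.64, 0.94 and -0.04, and 6 of the 11 were negative in the background with both. The fit with close replicates summed called 1 of the 11. Mthfd2, the mitochondrial folate enzyme, had 135, 64.7 and 136 CPM with miR-455, against 48.6, 58.5 and 56.1 CPM without it in the plain background and 85.4, 82.2 and 85.4 CPM with miR-455, against 62.1, 56.4 and 66.0 CPM without it in the background with both, with no overlap in any background (0.86 ± 0.12, adjusted p = 2.45e-04). Pycr1 (1.16 ± 0.22, adjusted p = 0.00365), Cth (0.97 ± 0.23, adjusted p = 0.0210) and Asns (0.55 ± 0.14, adjusted p = 0.0245) were the other 3. Psat1 and Phgdh, the first enzymes of serine synthesis, did not pass the test (0.15 ± 0.22 and 0.22 ± 0.24).

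In the endoplasmic reticulum, 6 of 35 genes for glycosylation and protein entry were higher and 0 lower, with a median of 0.18, and with close replicates summed 2 were higher. The 6 were Canx, the mannose phosphate isomerase Mpi (0.62 ± 0.09, adjusted p = 2.11e-04), Alg2 and Alg3, the signal peptidase subunit Spcs2 and the signal recognition receptor Srpra. For comparison, 1.41% of all genes were called higher and 1.9% lower in the fit of all 24 libraries. In a list of 19 genes of endoplasmic reticulum stress and of the transcription factor ATF4, 3 were higher (Canx, Asns and the chaperone Hspa5) and 0 lower, and 16 were positive with a median of 0.21. Hspa5 had 804, 2065 and 1069 CPM with miR-455, against 655, 611 and 585 CPM without it in the background with both, and libraries overlapped in 1 background, the plain one, where it had 1979, 622 and 1901 CPM with miR-455, against 1138, 946 and 633 CPM without it (main effect 0.74 ± 0.18, adjusted p = 0.0182). Ddit3, the stress-induced factor CHOP, did not pass the test (1.16 ± 0.40, adjusted p = 0.126).

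**Figure D5:**
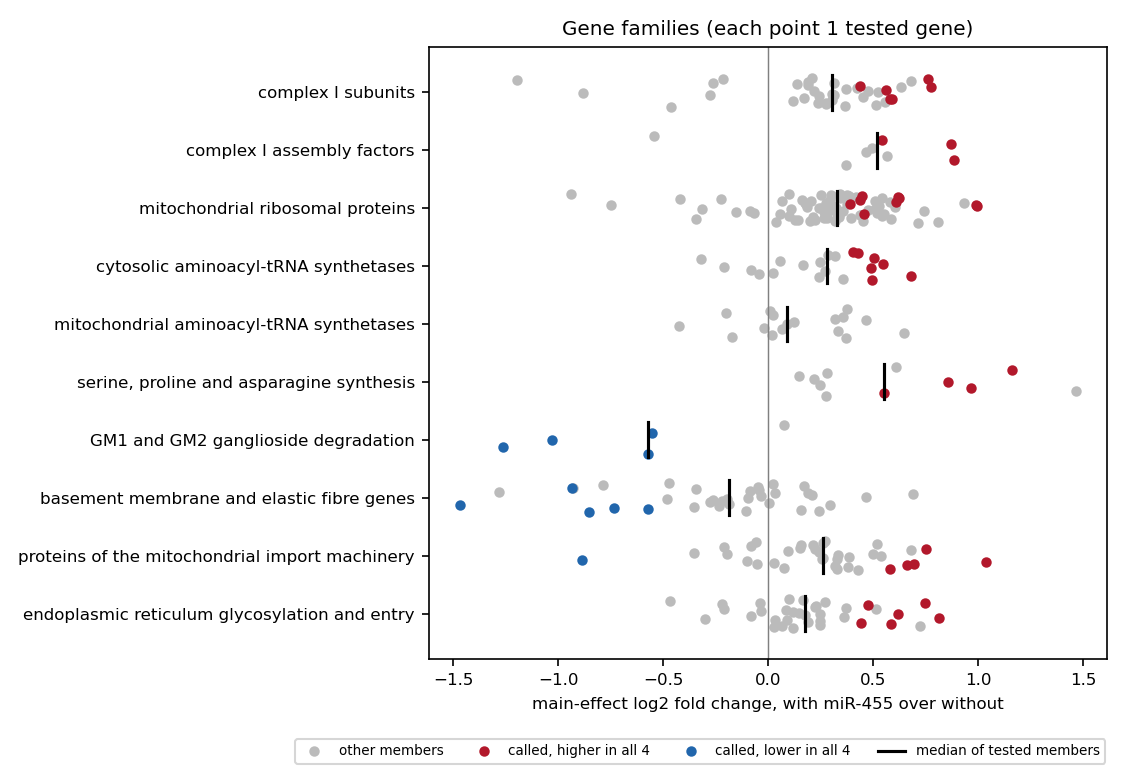
Main-effect log2 fold change (horizontal axis) of the tested genes counted in 10 gene families chosen after values were seen, one row per family; red and blue points were called and higher or lower in all 4 backgrounds, grey points were not, and black bars are family medians. Medians run from -0.57 for ganglioside degradation to 0.55 for serine, proline and asparagine synthesis.

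Reported targets of miR-455-3p, collected from studies in other cells, were counted next. Of 21 tested, 1 was lower (Ei24) and 0 higher, where 1.9% of all genes were called lower and 1.41% higher. The list's median was -0.18 against 0.02 over all genes. By background the list medians were -0.27, 0.07, -0.46 and 0.02, so they were negative only in the backgrounds without miR-222. Ei24, an endoplasmic reticulum protein of autophagy induced by p53, had 42.9, 39.2 and 44.5 CPM with miR-455, against 66.2, 61.3 and 61.7 CPM without it in the plain background. In the doxorubicin background it had 85.2, 92.2 and 78.1 CPM with miR-455, against 179, 155 and 142 CPM without it. The sides lay closer where miR-222 was present. In the miR-222 background Ei24 had 53.8, 52.7 and 63.2 CPM with miR-455, against 65.2, 64.2 and 71.3 CPM without it. In the background with both it had 80.1, 126 and 93.0 CPM with miR-455, against 113, 111 and 104 CPM without it, and there the libraries overlapped. The main effect of Ei24 was -0.46 ± 0.10 (adjusted p = 0.0128) and its changes were -0.58, -0.24, -0.89 and -0.14.

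Among all genes tested, called or not, 8.24% were higher and 7.52% lower in all 4 backgrounds. Of the 21 reported targets 1 was higher in all 4 without passing the test. Besides Ei24, 4 were lower in all 4 without passing it. They were Ndn, the growth suppressor necdin (-0.78 ± 0.22, adjusted p = 0.0520; -0.96, -0.67, -0.60 and -0.88 by background), Capn1, a calcium-dependent protease (-0.47 ± 0.15, adjusted p = 0.0945), Hif1an, the asparagine hydroxylase that limits hypoxia-inducible factors (-0.41 ± 0.14, adjusted p = 0.119), and Chrdl1, an antagonist of bone morphogenetic proteins (-0.55 ± 0.33, adjusted p = 0.491). Other targets split by miR-222. Hdac2, a histone deacetylase, had -1.33, 0.60, -0.94 and 0.53 by background and Eif4e, the cap-binding translation factor, -1.24, 0.46, -0.78 and 0.45. Their main effects were -0.28 ± 0.28 and -0.28 ± 0.24. Smad2, a signal carrier of the TGF-beta pathway, had -0.18 ± 0.17, adjusted p = 0.741, Runx2 -0.20 ± 0.22, adjusted p = 0.783 and Calr -0.30 ± 0.15, adjusted p = 0.370. DESeq2 called 4 of the 21 lower and 0 higher, against 3.61% of all genes lower and 2.86% higher. The edgeR test called 0 of them with close replicates summed.

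Over all genes 3.31% were called. The lists of sarcomere genes, of cardiac stress genes and of calcium handling and ion channels had 0 or 1 call each. Of 25 sarcomere genes 1 was higher, Myl2, the ventricular regulatory light chain (0.64 ± 0.18, adjusted p = 0.0439), and 19 were positive with a median of 0.19. Without the 4 libraries of few detected genes 1 was higher and 4 were lower, and with close replicates summed 0 were called. The medians of these 25 genes by background were 0.66, 0.06, -0.10 and 0.28. Myl2 changed more in the backgrounds without miR-222 (1.69, 0.15, 0.67 and 0.08; with minus without miR-222 -1.07 ± 0.22, adjusted p = 0.0214). Of 14 cardiac stress genes edgeR called 0 and DESeq2 1 higher, and an unadjusted p under 0.05 was reached by 2 higher and 1 lower gene. Nppa, the atrial natriuretic peptide, had 2.71, 0.25, 0.62 and -0.32 by background (0.76 ± 0.34, adjusted p = 0.291). Nppb, the related B-type peptide, had 0.80, -0.17, 1.43 and 0.73 (0.70 ± 0.21, adjusted p = 0.0749). The myosin heavy chains Myh6 (0.23 ± 0.19, adjusted p = 0.668) and Myh7 (0.32 ± 0.31, adjusted p = 0.745) did not pass, nor did the cell cycle inhibitor Cdkn1a (0.17 ± 0.36, adjusted p = 0.918). Of 27 genes for calcium handling and ion channels 1 was lower, Kcnh2, the rapid delayed rectifier channel (-1.40 ± 0.31, adjusted p = 0.0128), and it was not alike, since it stood at 0.08 in the plain background against -0.96, -2.14 and -2.58 in the others.

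Other pathways held 1 or 2 called genes each. Of 38 genes of TGF-beta, activin and BMP signalling 1 was lower, the ligand Bmp4 (-0.63, -0.53, -0.70 and -0.47 by background; -0.58 ± 0.13, adjusted p = 0.0134), and 0 higher. Of 25 p53 targets 2 were lower, Perp (-1.03 ± 0.21, adjusted p = 0.00745; -1.54, -0.37, -2.06 and -0.14 by background) and Ei24. Of 19 apoptosis regulators 1 was higher, Diablo, the mitochondrial antagonist of inhibitors of apoptosis. Diablo had no overlap in any background, with 64.2, 63.0 and 63.1 CPM with miR-455, against 26.5, 36.0 and 34.8 CPM without it under doxorubicin (0.66 ± 0.11, adjusted p = 5.42e-04). Of 23 glycolytic genes Pfkp was higher and Hk1, hexokinase, lower (-0.46 ± 0.11, adjusted p = 0.0273), with a list median of 0.37. The list medians of glycolysis by background were 1.34, -0.04, 0.17 and -0.25. Of 24 fatty acid oxidation genes Acaa2 was higher (0.90 ± 0.25, adjusted p = 0.0491), although its changes with miR-222 were close to 0 (2.01, 0.05, 1.55 and 0.01 by background). Hspe1 was the 1 heat shock gene called of 14 (0.66 ± 0.14, adjusted p = 0.00914) and Ei24 the 1 of 21 for autophagy and lysosome. Of the 17 fibroblast and matrix markers 1 was lower, the receptor Pdgfra (-0.56 ± 0.16, adjusted p = 0.0491), and 5 of the 17 had a positive main effect (median -0.15).

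In 15 of the 29 lists edgeR called 0 genes in the main effect. Over the distinct genes of these lists an unadjusted p under 0.05 was reached by 13 higher and 19 lower genes, which is 14.4% of them against 14.6% of all genes. By DESeq2 3 were called higher and 5 lower, or 3.6% against 6.47% of all genes. With close replicates summed, 26 of the 29 lists had no call. The 15 lists without a call in the main effect were cardiac stress, cardiac transcription factors, smooth muscle, endothelial and macrophage markers, the cell cycle (28 genes), its inhibitors, interferon-stimulated genes, NF-kB targets, NRF2 genes, mitochondrially encoded transcripts, hypoxia-induced genes, sterol synthesis, the microRNA pathway and histone deacetylases. Hypoxia-induced genes had the highest list median, 0.48 over 16 genes, and an unadjusted p under 0.05 was reached by 3 higher and 1 lower gene. By background the list medians were 1.22, -0.02, 0.24 and 0.08. The mean log2(CPM + 0.5) of these 16 genes was 5.91 ± 0.90 with miR-455 and 5.49 ± 0.93 without (SD, n = 12 each). Those SDs pool the 4 backgrounds, and the difference in this mean within backgrounds was not tested.

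Some genes moved alike in sign but not in size. Bckdk, the kinase that switches off breakdown of branched-chain amino acids, had the smallest p for a difference between backgrounds, and was lower in all 4 (-0.81, -0.39, -1.88 and -0.68). With doxorubicin it had 66.8, 64.8 and 62.3 CPM with miR-455, against 237, 238 and 241 CPM without it, whereas in the miR-222 background it had 75.5, 78.4 and 73.9 CPM with miR-455, against 100.4, 100.5 and 96.7 CPM without it. The libraries did not overlap in any background. The joint test across backgrounds called 19 genes (0.133%), and leaving out single libraries gave between 2, without replicate 2 of the control mimic, and 52, without replicate 3 of both mimics, each without doxorubicin. It called 0 genes with close replicates summed and 659 in DESeq2. Other genes called in that test had larger changes where miR-222 was absent. Vnn1, a pantetheinase, had 60.6, 63.6 and 57.3 CPM with miR-455, against 232, 259 and 195 CPM without it in the doxorubicin background, but 21.5, 21.5 and 34.6 CPM with miR-455, against 24.3, 25.5 and 31.8 CPM without it in the miR-222 background (-1.80, -0.08, -1.92 and 0.23 by background; difference with minus without miR-222 1.94 ± 0.24, adjusted p = 0.00115). Myl4, the atrial light chain, had, in the plain background, 300.4, 349 and 326 CPM with miR-455, against 28.1, 45.5 and 34.7 CPM without it, and in the miR-222 background it had 96.9, 106 and 102 CPM with miR-455, against 92.6, 86.4 and 85.1 CPM without it (3.17, 0.21, 1.00 and 0.18; difference -1.89 ± 0.32, adjusted p = 0.0102). Cmas, an enzyme that activates sialic acid, had its negative changes where miR-222 was present (-0.01, -0.71, 0.05 and -1.84; difference -1.29 ± 0.21, adjusted p = 0.00891).

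At the edge of the called set, the genes just inside the threshold were Ipmk (0.50 ± 0.14, adjusted p = 0.0497) and Slc38a1 (0.55 ± 0.15, adjusted p = 0.0497), and those just outside it Ptgr2 (0.36 ± 0.10, adjusted p = 0.0506) and Uhrf1bp1l (0.43 ± 0.12, adjusted p = 0.0513). In the background with miR-222 and doxorubicin, 18 of the 23 genes called there were among those that moved alike, and they included Dkk3 (-1.76), Arpc1a (-1.97), Coq2 (-1.98), Gltp (-1.92), Ppm1g (-1.25) and Glb1 (-1.09). Coq2 makes a precursor of ubiquinone and Gltp transfers glycolipids between membranes. The 5 that were not alike were Kcnh2, Cmas, Mpc2, Lamtor2 and mrpl9.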

How the data were processed

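The values are expected counts per gene, which the authors deposited as a filtered raw count table; the submitters' processing notes name Salmon, DESeq2 and the build Rnor_6.0 without versions or roles, and the filter is not stated. Of its values 38406 (7.35%) were not whole, and all were rounded to whole counts. R 4.3.3 and edgeR 4.0.16 were used: filterByExpr by group, TMM scaling, and the quasi-likelihood F test of miR-455 with background as a 4-level block. A means model of the 8 groups gave the within-background effects and their differences. All adjusted p-values are Benjamini-Hochberg values over the 14303 genes tested, and each standard error is the size of the log2 fold change over the square root of F. The exact permutation test of technical measures enumerated 160000 label choices within backgrounds.

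The naming rule took the 15 higher and 15 lower genes described, up to 4 members per list with the smallest p, the reported targets, 6 genes with the smallest p for a difference between backgrounds, and Ei24, Nppa, Nppb, Myh6, Myh7 and Cdkn1a. Members, lists and tests were chosen with earlier results of these data known, and the 10 families and the genes picked from the core after values were seen. Some members of the families are not reported here and stand outside the family counts. Of the genes on the 29 lists, 525 were tested. No untranslated regions were used here, so seed sites were not examined. The scripts were tested on simulated data. Replicate numbers did not pair libraries: over 84 same-numbered pairs, the correlation of deviations ran from -0.581 to 0.453, over 0.1 in 16. Depth covers counting error only.

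Alternatives were DESeq2 1.42.0 and its size factors, dropping the filter or asking for 1 CPM in 3 libraries, the means model, a block for replicate number, each library left out, the sum of close replicates, the mitochondrial share as a covariate, and the 4 libraries with the fewest genes left out.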

Additional observations from a re-analysis of the deposited data

Results flagged for a closer look

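The effect of miR-455 differed between groups of libraries in tests of the difference itself. It differed between the 4 backgrounds in 19 genes by a joint test, and between settings with and without miR-222 in 265 genes, a count that single libraries moved between 37 and 1768. With close replicates summed both tests called 0 genes. The log2 difference (effect with miR-222 minus effect without) was positive for Vnn1 (1.94), Hdac2 (1.70), Perp (1.54), Mcm4 (1.53), Dcn (1.13), Hdac1 (0.95), Bckdk (0.81) and Gm2a (0.80). It was negative for Cend1 (-1.92), Myl4 (-1.89), Acaa2 (-1.75), Cmas (-1.29) and Myl2 (-1.07). Vnn1, Perp, Bckdk and Gm2a were lower in the main effect. For Perp, Bckdk and Gm2a a positive difference is a smaller fall with miR-222. Vnn1, as given above, fell slightly in the miR-222 background and rose slightly in the background with both. The difference in mitochondrial share changed sign with miR-222 as well, as given above, and with that share as a covariate 37 genes were called for the difference by miR-222, against 265 without the covariate.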

How the results depend on the processing

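None of the 451 genes that moved alike changed the sign of its main effect in any of the 33 alternatives. The main count (474) and the count alike (451) were 758 and 602 in the means model, 925 and 795 in DESeq2, 76 and 76 with close replicates summed, 1302 and 1197 with mitochondrial share as a covariate, and 1437 and 1324 once the 4 libraries with fewest genes were dropped (441 of the 451 called, 431 alike). With the replicate block they were 387 and 373. Leaving out single libraries gave 315 to 711 and 309 to 647; the 315 came without replicate 2 of miR-455 under doxorubicin. A stricter rule, a call in each of the 4 backgrounds, left 0 genes, and no overlap in all 4 left 73. The joint difference between backgrounds (19) gave 7 with DESeq2 size factors, 659 in DESeq2, 4 without a filter, 5 with the replicate block, 136 without the 4 libraries, 0 with replicates summed, 40 with the covariate, and 2 to 52 leaving out single libraries. The difference by doxorubicin (0) gave 45 in DESeq2, 81 without the 4 libraries, 2 with the covariate, and 0 to 3. The difference by miR-222 (265) gave 1778 in DESeq2, 484 with the 1 CPM filter, 61 with the replicate block, 124 without the 4 libraries, 0 summed, 37 with the covariate, and 37 to 1768. The three-way difference (0) gave 4 in DESeq2. Within backgrounds, the plain one (675) gave 1918 in DESeq2, 377 with the replicate block, 1994 without the 4 libraries, 2 summed, 317 with the covariate, and 16 to 1987. The miR-222 one (0) gave 24, 3 and 2 in DESeq2, without the 4 libraries and with the covariate. The doxorubicin one (358) gave 654 in DESeq2, 727 without the 4 libraries, 0 summed, 673 with the covariate, and 145 to 469. The background with both (23) gave 148 in DESeq2, 15 without a filter, 8 with the replicate block, 91 without the 4 libraries, 0 summed, 37 with the covariate, and 3 to 38. Fewer libraries enter the summed fit; the cause of the other shifts was not tested. Of 21767 genes, 14303 had enough counts to be tested.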
